A study of Homo sapiens with 12 samples.

Results

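The 28 genes described here encode the enzymes and regulators by which a cell makes cholesterol and fatty acids. They were listed by name, in 6 groups that follow the order of the pathway, and every probe set annotated to one of them was taken from the arrays. Of the 28 genes, 25 had a probe set that names the gene alone, and 24 of these passed the filter on low signals, out of 8021 genes tested and 11963 with a probe set of their own. MVD fell under the filter, CYP51A1 and FADS1 had only probe sets that also name another gene, and FDFT1 was not matched to a probe set.

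K562, a line grown from a patient with chronic myelogenous leukemia that carries the BCR-ABL1 fusion kinase, was cultured in RPMI medium with serum. The cells received DMSO, the solvent control, imatinib (STI571) at 0.5 µM or nilotinib (AMN107) at 0.05 µM, both of them inhibitors of that kinase, for 24 h. Total RNA of 4 samples per group was hybridised to 12 Affymetrix U133A 2.0 arrays, numbered 1 to 4 for nilotinib, 5 to 8 for imatinib and 9 to 12 for DMSO. The series set out to compare treated with untreated cells. All samples are 1 cell line, the 2 doses differ, and the labels do not say whether the 4 samples of a group came from separate cultures, so each p-value measures only the spread between these samples.

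Cholesterol synthesis starts from acetyl-CoA made in the cytosol, runs through mevalonate and isoprenoid units to squalene, closes squalene to lanosterol and trims lanosterol to cholesterol. Fatty acid synthesis uses the same acetyl-CoA, builds a saturated chain, and then lengthens and desaturates it for membrane lipids. Both pathways are controlled by the membrane-bound SREBP transcription factors, which are held in the endoplasmic reticulum by INSIG proteins when sterols are plentiful and released to the nucleus when sterols are scarce. Dividing leukemia cells draw on both pathways for new membrane.

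The signal is a linear brightness value per probe set, with nearly the same trimmed mean on each array (500.1 to 500.2). The arrays nevertheless differed in shape. DMSO arrays had a median signal over all probe sets of 119 ± 2.18, imatinib arrays of 142 ± 8.73 and nilotinib arrays of 179 ± 12.1 (SD, n = 4), with no overlap between any pair of groups (exact two-sided permutation p = 0.0286, the smallest that 4 against 4 allows). Actin control probe sets, whose 3'/5' ratio reports on RNA quality, had ratios above 3.5 on nilotinib arrays 1 and 2 and imatinib arrays 5 and 6. The ratio was 1.82 and 2.1 on nilotinib arrays 3 and 4, 2.71 and 2.04 on imatinib arrays 7 and 8, and 2.66 to 3.34 with DMSO. Setting aside the 4 arrays of high ratio thus leaves 2 arrays per drug, with ratios mostly below those of DMSO, and does not match RNA quality. The ratio did not separate the groups (exact permutation p from 0.4 to 0.8571). The 28S ribosomal RNA control did separate them, at 5432 ± 135 with DMSO against 20453 ± 1240 for imatinib and 24016 ± 2137 for nilotinib (exact permutation p = 0.0286 for each drug against DMSO), and its part in the results was not tested. Summed over the K562 markers GATA1, TAL1, KLF1, TFRC, LYL1, HBZ, EPOR, NFE2 and GFI1B, all 9 with a signal above the filter, DMSO arrays reached 33310 to 37700, imatinib arrays 53156 to 58856 and nilotinib arrays 58409 to 63495. None of 6 hepatocyte and adipocyte markers (ALB, APOA1, APOB, TTR, ADIPOQ, PLIN1) passed the filter, though they summed to 230.3 to 324.9 on DMSO arrays, 234.2 to 465.9 on imatinib arrays and 485.4 to 788.0 on nilotinib arrays. Of the other lineages, 4 of 6 lymphocyte markers, 1 of 6 granulocyte and monocyte markers (LYZ) and 2 of 5 fibroblast markers passed it.

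In cells treated with imatinib, the desaturase gene SCD and the citrate lyase gene ACLY were lower, and SQLE, ELOVL6, HMGCS1, TM7SF2 and INSIG1 were higher, than in DMSO-treated cells. This was 7 of the 24 genes tested, or 29.2%, at a Benjamini-Hochberg adjusted p under 0.05 in limma, with 5 higher and 2 lower. Over all genes tested, 39.4% passed the same test, 22.0% higher and 17.3% lower, and whether the 2 shares differ was not tested. The 24 leave out the shared probe sets of CYP51A1 and FADS1, which were called lower with each drug, as given below. Their median log2 difference was 0.01, against 0.09 for all genes. The drug and DMSO arrays did not overlap for 8 of the 24, beside 39.1% of all genes. The number called higher fell from 5 to 3 when imatinib array 5, imatinib array 6, DMSO array 10 or DMSO array 12 was left out, and likewise without the 4 arrays of high actin ratio, where 3 were higher and 3 lower. Centring each array on its median gave 3 higher and 8 lower. Among all 8021 genes tested, that centring gave 820 higher and 2276 lower.

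With nilotinib, 8 genes were lower (SCD, ACLY, PMVK, ACAT2, FDPS, EBP, IDI1 and ACACA) and 3 were higher (TM7SF2, SQLE and INSIG1) than with DMSO. These 11 of 24 are 45.8%, beside 58.2% of all genes tested, of which 34.7% were higher and 23.5% lower. The median log2 difference of the synthesis genes was -0.19, and that of all genes was 0.15. The arrays did not overlap for 9 of the 24, beside 50.7% of all genes. Leaving out DMSO array 11 brought the number lower from 8 to 5. Without the 4 arrays of high actin ratio 2 were higher and 7 lower, and centring each array on its median gave 1 higher and 19 lower. Among all 8021 genes tested, that centring gave 831 higher and 3947 lower. The comparisons of each drug with DMSO share the same 4 DMSO arrays, so their values stand side by side below and no agreement between them was computed. In bulk RNA, fewer cells that express a gene and less RNA per cell cannot be told apart.

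**Figure D1:**
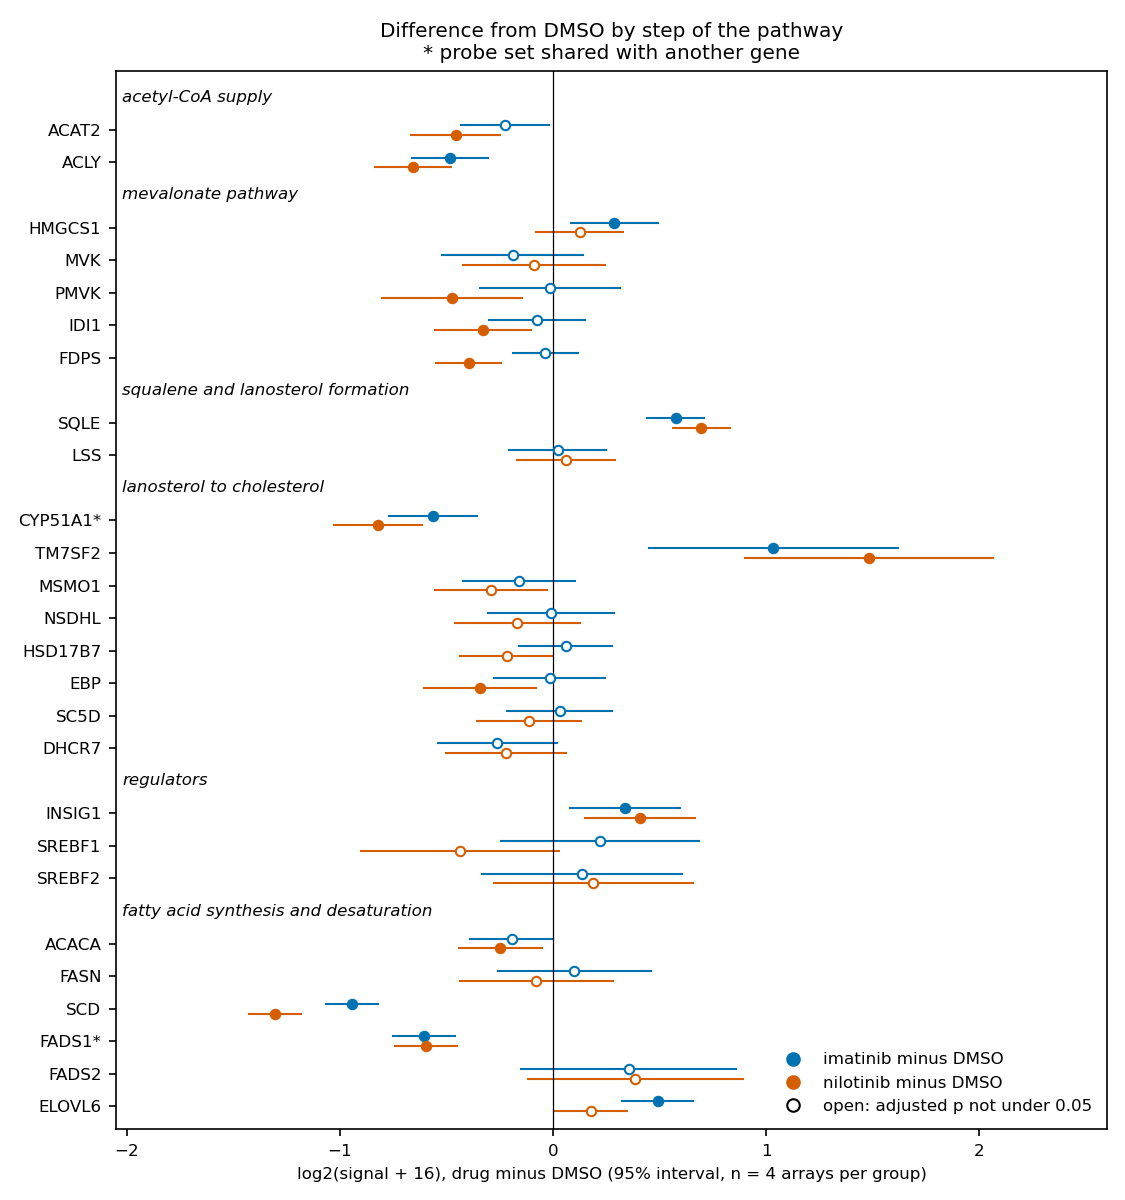
Difference of each drug from DMSO on the log2(signal + 16) scale for the genes above the filter on low signals, in the order of the pathway, with 95% intervals from limma and 4 arrays per group; filled points passed an adjusted p under 0.05. SCD, ACLY, FADS1 and CYP51A1 lie left of 0 for each drug, and SQLE, TM7SF2 and INSIG1 lie right of it.

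The promoter sequences of 6 genes are shown because 4 of them have a probe set that was lower with each drug (SCD and ACLY, and FADS1 and CYP51A1 through probe sets shared with another gene). ELOVL6, called higher with imatinib, and INSIG1, called higher with each drug, are examples of genes that were higher. TM7SF2, called higher with each drug, and HMGCS1, called higher with imatinib, had windows that are not shown. Each run is the 250 bases before the annotated start in RefSeq, build GRCh38.p14, read 5' to 3' on the strand of the gene. Capitals mark the letters of 4 motifs on either strand: the CCAAT box bound by NF-Y (CCAAT), the GC box bound by SP1 (GGGCGG), the E box (CACGTG), and the core of the sterol regulatory element (TCACNCCAC).
SCD: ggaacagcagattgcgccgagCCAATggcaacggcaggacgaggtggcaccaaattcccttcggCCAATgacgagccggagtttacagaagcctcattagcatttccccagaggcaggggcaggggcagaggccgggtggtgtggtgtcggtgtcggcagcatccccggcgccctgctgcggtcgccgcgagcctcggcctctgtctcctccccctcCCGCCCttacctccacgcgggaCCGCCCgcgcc
FADS1: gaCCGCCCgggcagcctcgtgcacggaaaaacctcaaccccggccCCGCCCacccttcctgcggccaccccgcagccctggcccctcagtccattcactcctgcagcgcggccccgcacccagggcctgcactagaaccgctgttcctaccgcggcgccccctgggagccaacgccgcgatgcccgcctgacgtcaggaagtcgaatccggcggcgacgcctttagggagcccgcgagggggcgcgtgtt
ACLY: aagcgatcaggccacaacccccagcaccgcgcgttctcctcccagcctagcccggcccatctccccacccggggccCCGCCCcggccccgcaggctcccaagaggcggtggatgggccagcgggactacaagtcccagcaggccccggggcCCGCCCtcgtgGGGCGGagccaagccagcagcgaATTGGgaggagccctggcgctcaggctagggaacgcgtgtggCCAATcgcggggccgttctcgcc
CYP51A1: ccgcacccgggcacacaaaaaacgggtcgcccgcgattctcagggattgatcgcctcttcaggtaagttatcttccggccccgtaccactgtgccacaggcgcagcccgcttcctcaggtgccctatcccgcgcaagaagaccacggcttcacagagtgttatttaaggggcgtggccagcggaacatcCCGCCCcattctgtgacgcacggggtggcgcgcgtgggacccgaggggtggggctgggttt
ELOVL6: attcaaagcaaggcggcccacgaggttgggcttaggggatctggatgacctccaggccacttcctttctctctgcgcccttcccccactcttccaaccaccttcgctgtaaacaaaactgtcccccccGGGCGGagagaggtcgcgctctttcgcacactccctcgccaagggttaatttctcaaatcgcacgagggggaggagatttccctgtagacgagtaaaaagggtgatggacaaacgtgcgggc
INSIG1: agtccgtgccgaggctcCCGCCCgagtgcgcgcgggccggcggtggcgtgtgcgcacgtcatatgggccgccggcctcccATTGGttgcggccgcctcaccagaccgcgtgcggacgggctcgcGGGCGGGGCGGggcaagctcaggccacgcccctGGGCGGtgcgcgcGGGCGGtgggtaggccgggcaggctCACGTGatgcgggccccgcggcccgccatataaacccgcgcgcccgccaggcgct
These windows lie at chr10:100346983-100347232 (SCD, plus strand), chr11:61817004-61817253 (FADS1, minus strand), chr17:41919023-41919272 (ACLY, minus strand, the more upstream of its 2 starts in the table), chr7:92134478-92134727 (CYP51A1, minus strand), chr4:110198616-110198865 (ELOVL6, minus strand) and chr7:155297628-155297877 (INSIG1, plus strand). The SCD window holds 2 CCAAT boxes and 2 GC boxes, and the ACLY window holds 2 CCAAT boxes and 3 GC boxes. The FADS1, CYP51A1 and ELOVL6 windows hold GC boxes alone, 2 in FADS1 and 1 in each of the others. The INSIG1 window has 1 CCAAT box, 5 GC boxes, of which 2 overlap, and 1 E box.

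Of the 28 genes, 24 had a window in the RefSeq table; ACAT2, FASN, FDFT1 and SQLE had none. A CCAAT box stood in 15 of the 24 windows and in 32.0% of all 35116 windows of the same length, some of which are alternative starts of 1 gene. A GC box stood in 21 of 24, against 42.6% of all windows. E boxes were found in 2 of 24 (SC5D and INSIG1), against 6.34% of all, and the sterol regulatory element core in 1 of 24 (SREBF2), against 0.883% of all. These are matches of letters, counted with overlaps, and a window without a match says only that these letters are not in those 250 bases.

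The first group supplies acetyl-CoA. ACLY, which splits citrate into acetyl-CoA in the cytosol, read 3063, 2775, 2991 and 3016 on the 4 DMSO arrays, 1833, 2575, 1975 and 2129 on the imatinib arrays, and 1965, 1785, 1933 and 1807 on the nilotinib arrays. Every drug-treated array was below every DMSO array, and imatinib array 6 was the highest of the treated ones. The log2 difference was -0.48 ± 0.09 (SE) with imatinib (adjusted p = 2.03e-04, limma) and -0.66 ± 0.09 with nilotinib (adjusted p = 4.1e-06). A second probe set of ACLY was also lower with each drug, from 609.3 to 326.8 and 299.0. On it, imatinib arrays 5 and 6, of high actin ratio, read 161.5 and 206.4, against 419.6 and 519.8 on arrays 7 and 8. Nilotinib arrays 1 and 2, also of high ratio, read 273.9 and 125.1, against 389.7 and 407.3 on arrays 3 and 4. The lowest DMSO array read 530.5, and the part of RNA quality in this fall was not tested. The third ACLY probe set did not pass the test, with differences of -0.28 and -0.20.

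ACAT2, the cytosolic thiolase that joins acetyl-CoA units at the start of the mevalonate pathway, read 1014, 969, 953 and 1042 with DMSO, 810, 843, 814 and 931 with imatinib, and 687, 883, 647 and 684 with nilotinib. Neither drug group overlapped the DMSO arrays. The gene was lower with nilotinib (-0.46 ± 0.10, adjusted p = 8.58e-04, limma), while the imatinib difference of -0.22 had an adjusted p of 0.0887. The imatinib difference passed without nilotinib array 2 in the shared fit (0.0435) and when only the imatinib and DMSO arrays were fitted (0.0447). It also passed under median centring (-0.45, adjusted p = 0.0023). So 1 of the 2 genes of this group was lower with imatinib (beside 17.3% of all genes) and 2 of 2 with nilotinib (beside 23.5%).

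**Figure D2:**
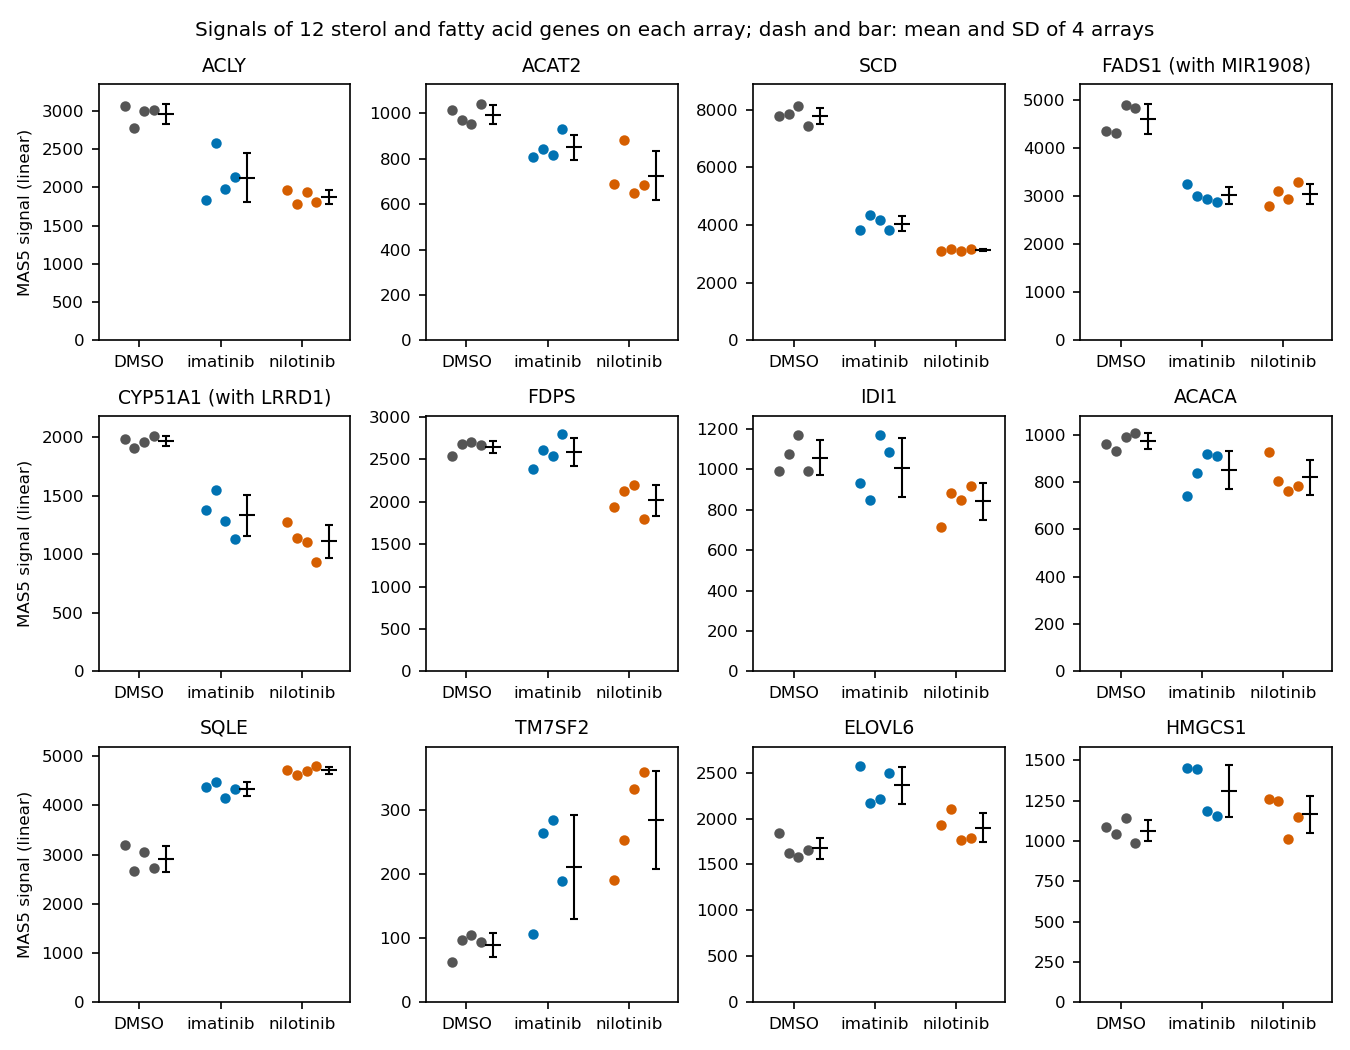
MAS5 signal (linear axis from 0) of 12 genes on each array, 4 arrays per group in replicate order from left to right; the dash and bar beside each group are its mean and SD. In 8 panels (ACLY to ACACA) at least 1 drug group lies below DMSO, with SCD falling from near 7785 to near 4046 and 3137, and in the other 4 panels at least 1 drug group lies above DMSO.

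In the mevalonate pathway, which turns acetyl-CoA units into the isoprenoid building block farnesyl diphosphate, few genes were called with imatinib. Of the 5 genes tested, 1 was higher and none lower with imatinib (beside 22.0% and 17.3% of all genes), and none was higher and 3 were lower with nilotinib (beside 34.7% and 23.5%). Between the drugs, 1 of the 5, FDPS, was called. FDPS, the synthase of farnesyl diphosphate, read 2543, 2678, 2704 and 2670 with DMSO, 2393, 2613, 2542 and 2797 with imatinib, and 1941, 2125, 2203 and 1795 with nilotinib. The imatinib arrays spread around the DMSO values, and all 4 nilotinib arrays lay below both other groups. FDPS differed from DMSO by -0.04 ± 0.08 with imatinib (adjusted p = 0.74, limma) and by -0.40 ± 0.08 with nilotinib (adjusted p = 1.98e-04). It was lower with nilotinib than with imatinib (-0.36 ± 0.08, adjusted p = 0.00441).

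IDI1, the isomerase one step before FDPS, read 990, 1076, 1172 and 991 with DMSO, 930, 847, 1171 and 1086 with imatinib, and 713, 885, 850 and 916 with nilotinib. Nilotinib arrays lay below all DMSO arrays, and the imatinib arrays straddled both. The nilotinib difference was -0.33 ± 0.11 (adjusted p = 0.0165, limma), and it lost the call without nilotinib array 1 (adjusted p = 0.0623) or DMSO array 11 (0.0607). The second IDI1 probe set gave -0.26 and was not called. Both IDI1 probe sets are of the type that Affymetrix marks as open to cross-hybridisation.

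PMVK, the kinase that adds the second phosphate to mevalonate, averaged 602.9 ± 87.0 on DMSO arrays, 593.3 ± 43.1 on imatinib arrays and 439.0 ± 132.4 on nilotinib arrays (SD, n = 4). Nilotinib arrays 1 to 3 read 392, 388 and 341, below every DMSO array, while nilotinib array 4 read 635, within the DMSO range of 501 to 699. The nilotinib difference of -0.47 ± 0.16 passed the test (adjusted p = 0.0158, limma) but not without nilotinib array 3 (0.0594) or DMSO array 11 (0.0581). It also failed with the 4 high-ratio arrays set aside (0.149).

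HMGCS1, which makes the HMG-CoA that feeds mevalonate synthesis, read 1085, 1042, 1143 and 990 with DMSO, 1456, 1445, 1184 and 1156 with imatinib, and 1259, 1247, 1010 and 1149 with nilotinib. Imatinib arrays 5 and 6, which have the high actin ratios, stood well above the other imatinib arrays. The gene was higher with imatinib by 0.29 ± 0.10 (adjusted p = 0.0262, limma). The call was lost without imatinib array 5 (0.0877), imatinib array 6 (0.0838), DMSO array 10 (0.0573) or DMSO array 12 (0.0757), and with the high-ratio arrays set aside the difference was 0.14 (adjusted p = 0.284). It was also lost under median centring (0.06, adjusted p = 0.716), over the mean of its probe sets (0.13, 0.446) and without the intensity trend (0.0509). With nilotinib the difference was 0.13 (adjusted p = 0.282), and it turned to -0.40 when arrays were centred on their medians. A second HMGCS1 probe set above the filter gave -0.04 with imatinib and 0.33 with nilotinib and was not called.

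MVK, the first mevalonate kinase, was not called, with differences of -0.19 and -0.09 from a DMSO mean of 649.9 ± 85.6. MVD, the decarboxylase, had signals from 14 up to 75.1 on DMSO arrays, 24.9 to 159 on imatinib arrays and 99.6 to 177 on nilotinib arrays, which left its mean below the filter of 80.6. All its DMSO arrays were under the filter, so no difference was computed as a result for MVD. The hepatocyte and adipocyte markers, likewise under the filter, also had a higher summed signal on the nilotinib arrays, as given above, and the part of that shift in the MVD signals was not tested.

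Squalene epoxidase, SQLE, inserts oxygen into squalene and is a slow step of the sterol branch. SQLE read 3195, 2658, 3058 and 2723 with DMSO, 4379, 4472, 4148 and 4328 with imatinib, and 4716, 4622, 4707 and 4793 with nilotinib. The 3 groups did not overlap one another. SQLE was higher by 0.58 ± 0.07 with imatinib (adjusted p = 9.79e-07, limma) and by 0.70 ± 0.07 with nilotinib (adjusted p = 4.59e-08), though centring arrays on their medians left 0.17 for nilotinib (adjusted p = 0.103). All 3 SQLE probe sets were called higher with each drug, with differences from 0.36 to 1.00 for imatinib and from 0.51 to 1.03 for nilotinib. Of the genes before it in the pathway, ACLY was lower with each drug, ACAT2, PMVK, IDI1 and FDPS were lower with nilotinib, and HMGCS1 was higher with imatinib.

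LSS, which closes squalene epoxide to lanosterol, was not called on its brightest probe set, which averaged 668.2 with DMSO, 675.6 with imatinib and 696.4 with nilotinib. A dim LSS probe set went from a DMSO mean of 56.0 to imatinib and nilotinib means of 154.6 and 191.3. All its DMSO arrays, at 36.2 to 69.6, lay under the filter, which it passed through the drug arrays, so no size of change is given.

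**Figure D3:**
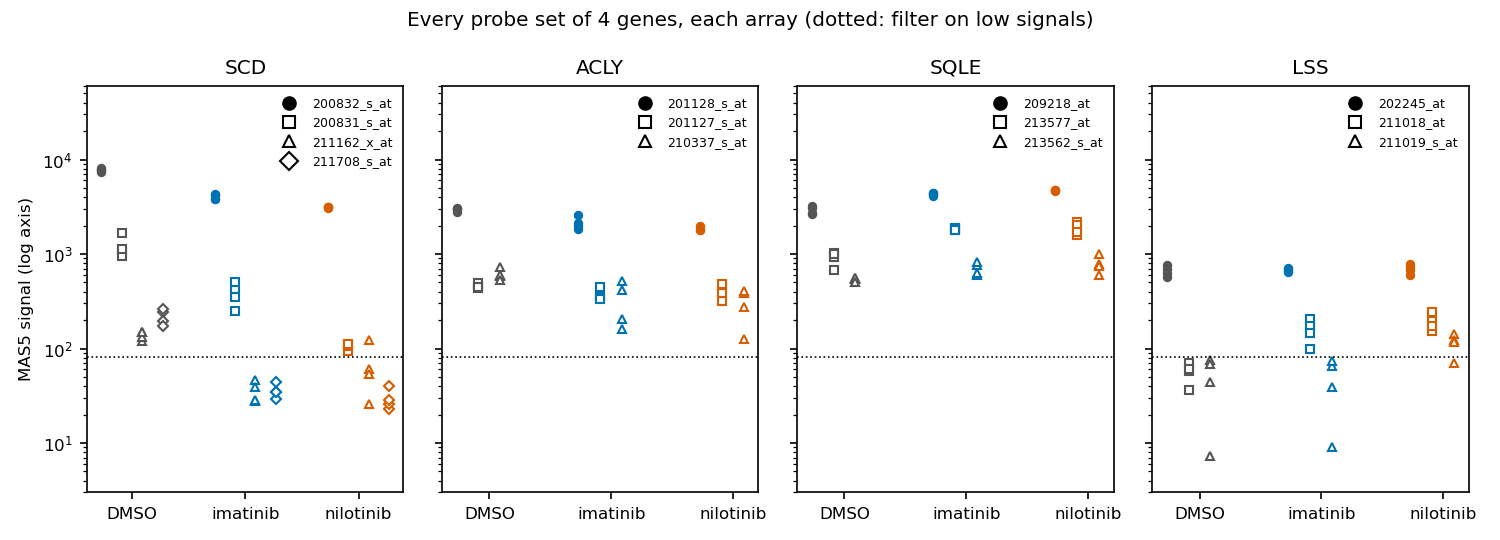
Signals of every probe set of SCD, ACLY, SQLE and LSS on each array (log axis), with the filter at 80.6 dotted; filled circles are the probe set used for the gene. The SCD probe sets all had lower means with the drugs, and the SQLE probe sets all read higher. A dim LSS probe set went from a mean of 56.0 to 191.3, whereas the bright one read 668.2 to 696.4.

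Of the 7 genes tested that carry lanosterol to cholesterol, 1 was higher and none lower with imatinib (beside 22.0% and 17.3% of all genes). With nilotinib 1 was higher and 1 lower (beside 34.7% and 23.5%). CYP51A1, the lanosterol demethylase that opens this stretch, is measured by probe sets that also name LRRD1, so the signal cannot be assigned to 1 of these genes. That shared probe set read 1982, 1904, 1960 and 2005 with DMSO, 1374, 1545, 1285 and 1126 with imatinib, and 1272, 1136, 1102 and 933 with nilotinib. All treated arrays were below all DMSO arrays. In a fit that added shared probe sets, the differences were -0.56 ± 0.10 with imatinib (adjusted p = 1.7e-04, limma) and -0.82 ± 0.10 with nilotinib (adjusted p = 1.34e-06). The second shared probe set was lower as well, from 691.3 to 446.0 and 465.1.

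TM7SF2, a sterol reductase that acts just after the demethylase, read 63.2, 96.9, 105 and 94.0 with DMSO, 106, 263, 284 and 189 with imatinib, and 190, 254, 333 and 359 with nilotinib. The drug groups lay above DMSO, with imatinib array 5 barely so. The log2 differences were 1.04 ± 0.28 (adjusted p = 0.00626, limma) and 1.48 ± 0.28 (adjusted p = 1.88e-04). TM7SF2 is a dim gene, close to the filter with DMSO, and the median signal of the whole array was also higher with each drug; the part of that shift in its value was not tested. It kept its direction and call when arrays were centred on their medians.

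EBP, the isomerase that shifts a ring double bond, averaged 674.3 ± 102.6 on DMSO arrays, 666.1 ± 86.2 on imatinib arrays and 526.6 ± 58.5 on nilotinib arrays (SD, n = 4). Nilotinib arrays spanned 470 to 597 and overlapped the DMSO range of 588 to 823. Its nilotinib difference of -0.34 ± 0.13 passed the test (adjusted p = 0.0272, limma), but not without nilotinib array 1 (0.0738), nilotinib array 2 (0.0622), DMSO array 12 (0.116) or the 4 arrays of high actin ratio (0.197). A second EBP probe set above the filter gave -0.18 with nilotinib and was not called. The mean over its probe sets gave -0.02, where a dim probe set below the filter (difference 0.47) enters.

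The remaining genes of this stretch did not pass the test with either drug on the signals as deposited. MSMO1, NSDHL and HSD17B7, which together strip methyl groups from the ring, differed by -0.16, -0.01 and 0.06 with imatinib and by -0.29, -0.17 and -0.22 with nilotinib. For MSMO1 the nilotinib adjusted p was 0.0572, and its 95% interval was -0.56 to -0.03. Without the 4 arrays of high actin ratio, which leaves 2 arrays per drug with ratios mostly below those of DMSO, MSMO1 was called lower with each drug. The differences were -0.39 for imatinib (adjusted p = 0.0114, limma) and -0.43 for nilotinib (0.00403). MSMO1 was also called with nilotinib when nilotinib array 1 (0.0194), imatinib array 6 (0.0465) or imatinib array 8 (0.0324) was left out. SC5D, a desaturase, differed by 0.03 and -0.11. DHCR7, the reductase that ends one branch of the pathway, differed by -0.26 and -0.22, and its nilotinib difference was called under quantile normalization (-0.38, adjusted p = 0.0244) and cyclic loess (-0.37, 0.0252). HSD17B7 was called with nilotinib under quantile normalization (-0.29, adjusted p = 0.0378). Under median centring, where 3947 of all 8021 genes were called lower with nilotinib, these 5 genes were all among them. The 95% intervals of these genes reached as far as -0.56 (MSMO1, nilotinib) and -0.55 (DHCR7, imatinib), so reductions of that size are not excluded. The HSD17B7 probe set is of the type marked as open to cross-hybridisation.

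Among the regulators, INSIG1, which retains SREBP in the endoplasmic reticulum and is itself an SREBP target, read 1219, 860, 1040 and 926 with DMSO, 1266, 1441, 1149 and 1247 with imatinib, and 1672, 1428, 1225 and 1086 with nilotinib. The highest DMSO array, 9, exceeded the lowest array of each drug. INSIG1 was higher by 0.34 ± 0.13 with imatinib (adjusted p = 0.0397, limma) and by 0.41 ± 0.13 with nilotinib (adjusted p = 0.00968), but centring on the array median gave -0.12 for nilotinib. The imatinib call was lost without imatinib array 5 (0.0662), 6 (0.116) or 8 (0.0594) and without DMSO array 10 (0.131), 11 (0.0576) or 12 (0.101). Without the 4 arrays of high actin ratio neither call held (adjusted p = 0.132 and 0.191). Of its 3 probe sets, 2 were called higher with imatinib and 1 with nilotinib.

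SREBF1 and SREBF2, the genes of the SREBP factors themselves, were not called on the signals as deposited. SREBF1 averaged 255.5 ± 22.6 on DMSO arrays, 304.2 ± 61.9 on imatinib arrays and 193.4 ± 67.4 on nilotinib arrays (SD, n = 4), and nilotinib array 4 was the lowest at 106. The difference from DMSO with nilotinib was -0.44 (adjusted p = 0.102, limma), but SREBF1 was called lower under quantile normalization (-0.82, 0.00849), cyclic loess (-0.78, 0.00707) and median centring (-0.96, 8.89e-04) and without nilotinib array 3 (-0.61, 0.0271). Between nilotinib and imatinib the difference was -0.66 ± 0.22 (adjusted p = 0.0565). That was called under the same 4 settings (-0.83 to -0.95), without imatinib array 5 (-0.77, 0.0432) and with the filter at the 60th percentile (0.0437). SREBF2 averaged 210.3, 234.5 and 243.3, with differences of 0.14 and 0.19 that lie within their standard error of 0.22.

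The largest reduction with each drug, among the 24 synthesis genes tested, was in SCD, the desaturase that puts a double bond into saturated fatty acids. SCD read 7762, 7838, 8116 and 7422 with DMSO, 3816, 4342, 4188 and 3839 with imatinib, and 3114, 3162, 3092 and 3180 with nilotinib. The 3 groups were fully separate, and the nilotinib arrays lay within a narrow band. SCD was 1.92-fold lower with imatinib (log2 difference -0.94 ± 0.06, adjusted p = 3.03e-10, limma) and 2.47-fold lower with nilotinib (-1.31 ± 0.06, adjusted p = 1.45e-12).

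Other probe sets of SCD were also lower. On the second brightest the DMSO mean of 1204.8 compared with 383.5 for imatinib and 104.1 for nilotinib, or -1.62 and -3.31 on the log2 scale, larger than on the brightest one. On another it went from 217.0 to 35.6 and 29.3, and on the last from 137.4 to 35.5 and 66.2, and both of these lay below the filter over all arrays, with no call made. The means of all 4 probe sets were therefore lower with each drug, but the size of the change depended on the probe set. On the last, nilotinib array 4 read 124.0, above DMSO array 10 at 120.2. That probe set is also of the type marked as open to cross-hybridisation. Against the mean of all 4 DMSO arrays, the drug arrays of high actin ratio differed by -0.93 (imatinib) and -1.31 (nilotinib). The other drug arrays differed by -0.95 and -1.31. No DMSO array had a high ratio, so drug and DMSO were not compared at a matched ratio.

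FADS1, a desaturase of polyunsaturated fatty acids, is measured by probe sets that also name the microRNA gene MIR1908. The shared probe set read 4340, 4304, 4894 and 4837 with DMSO, 3256, 2995, 2931 and 2867 with imatinib, and 2797, 3105, 2947 and 3289 with nilotinib. Each treated array was below each DMSO array, and the drug groups overlapped each other. The differences were -0.61 ± 0.07 with imatinib (adjusted p = 1.39e-06, limma, with shared probe sets added) and -0.60 ± 0.07 with nilotinib (adjusted p = 1.05e-06). All 3 shared probe sets were called lower with each drug. FADS2, the partner desaturase beside it on the chromosome, was dim and not called, with a DMSO mean of 145.5 ± 37.4 and differences of 0.36 and 0.39.

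ELOVL6, which lengthens palmitate to stearate just before SCD acts, went the other way. ELOVL6 read 1839, 1620, 1582 and 1655 with DMSO, 2575, 2173, 2208 and 2495 with imatinib, and 1934, 2108, 1763 and 1789 with nilotinib. The imatinib arrays were above all others, and the nilotinib arrays overlapped DMSO through DMSO array 9. The gene was higher with imatinib (0.49 ± 0.08, adjusted p = 8.81e-05, limma), whereas the nilotinib difference of 0.18 ± 0.08 had an adjusted p of 0.0708. The nilotinib difference was called higher under quantile normalization (0.29, adjusted p = 0.00633), cyclic loess (0.29, 0.00586) and the mean of its probe sets (0.27, 0.0085) and without DMSO array 9 (0.22, 0.0395), and it turned to -0.34 under median centring (0.00509). On its second probe set it was called higher with each drug (0.56 and 0.36).

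The core chain-building enzymes moved less. ACACA, which makes malonyl-CoA, read 960, 931, 992 and 1006 with DMSO, 742, 836, 918 and 908 with imatinib, and 927, 804, 763 and 783 with nilotinib. Both drug groups lay below DMSO, with imatinib array 7 and nilotinib array 1 close to its lowest value. Only the nilotinib difference was called (-0.25 ± 0.10, adjusted p = 0.0335, limma, against -0.19 and 0.118 for imatinib). That call was lost without nilotinib array 2 (0.0574), 3 (0.0868) or 4 (0.0753) and without DMSO array 9 (0.058), 11 (0.0725) or 12 (0.0759). FASN, the synthase that makes palmitate, was not called, at 448.3 ± 56.9 on DMSO arrays, 481.9 ± 61.8 on imatinib arrays and 434.2 ± 123.4 on nilotinib arrays (SD, n = 4). In the group of 5 tested genes for fatty acid synthesis, 1 was higher and 1 lower with imatinib (beside 22.0% and 17.3% of all genes). With nilotinib none was higher and 2 were lower (beside 34.7% and 23.5%).

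Nilotinib was developed from the scaffold of imatinib and binds the same kinase pocket. The drugs were given here at different doses, so a difference between them is one between these treatments. Of the 24 genes, 3 were lower with nilotinib than with imatinib (12.5%) and none was higher, beside 14% of all genes tested, 5.82% higher and 8.22% lower; the arrays did not overlap for 4 of the 24, beside 18% of all genes. The 3 were SCD (-0.36 ± 0.06, adjusted p = 8.29e-04, limma), FDPS (given above) and ELOVL6 (-0.31 ± 0.08, adjusted p = 0.0174). The ELOVL6 call was lost without nilotinib array 4 (0.052) or imatinib array 5 (0.0516), under quantile normalization (-0.24, 0.0597) or cyclic loess (-0.22, 0.0899), and without the intensity trend (0.0516). Centring on the array median gave 16 lower, quantile normalization 5 lower and 1 higher. Among all genes tested, that centring gave 2646 lower and 76 higher, and quantile normalization 635 lower and 390 higher.

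For the other genes called against DMSO, the 95% intervals of the difference between the drugs are given in turn. The interval was -0.02 to 0.26 for SQLE, whose groups did not overlap, and -0.36 to 0.01 for ACLY. It was -0.14 to 0.16 for the FADS1 probe set, around a difference of 0.01. TM7SF2 had the widest, from -0.14 to 1.04. PMVK differed by -0.46 (interval -0.79 to -0.13, adjusted p = 0.0596) and the CYP51A1 probe set by -0.26 (-0.47 to -0.05, adjusted p = 0.088). PMVK was called without nilotinib array 4 (-0.64, adjusted p = 0.00533), under quantile normalization (0.0327) and cyclic loess (0.0461) and with the filter at the 60th percentile (0.0483). These intervals are for single genes, before adjustment, and those of ACAT2 (-0.44 to -0.02), IDI1 (-0.49 to -0.02) and EBP (-0.59 to -0.06) also lay below 0, with adjusted p from 0.0883 to 0.128. ACAT2 was called without nilotinib array 2 (-0.33, adjusted p = 0.03) and EBP under quantile normalization (-0.40, 0.0449). SQLE was called higher with nilotinib than with imatinib under quantile normalization (0.23, adjusted p = 0.0209) and cyclic loess (0.22, 0.0349). The CYP51A1 probe set was called lower without nilotinib array 1 (-0.326, adjusted p = 0.0426) or imatinib array 8 (-0.335, 0.0369). The intervals of HMGCS1 (-0.37 to 0.04), INSIG1 (-0.19 to 0.33) and ACACA (-0.25 to 0.15) included 0. A p-value that misses the threshold does not show that the treatments act alike on these genes.

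Beside the synthesis genes stand 5 lists of other lipid genes. In the list for SREBP processing and sterol handling, 4 of 15 genes tested were higher (26.7%) and 1 lower (6.67%) with imatinib, and 8 were higher (53.3%) and 2 lower (13.3%) with nilotinib. Over all genes, 22.0% were higher and 17.3% lower with imatinib, and 34.7% and 23.5% with nilotinib, and the next lists are read beside the same shares. ABCG1, a cholesterol exporter, had means of 46.5, 102.9 and 184.2 for DMSO, imatinib and nilotinib, and the exporter ABCA1 of 69.5, 90.6 and 154.7. Their DMSO means lie under the filter of 80.6, which both genes passed through the drug arrays, so no size of change is given and their place in the counts carries no weight. MYLIP, a ubiquitin ligase that marks lipoprotein receptors for breakdown, rose from 573.1 to 1068.1 and 1218.2. TMEM97, a sterol-binding membrane protein, fell from 2612.7 to 1990.1 and 1362.7, and was lower with nilotinib than with imatinib (-0.54, adjusted p = 1.3e-04, limma).

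Isoprenoids made from FDPS products are attached to proteins or built into other molecules. Of 12 genes tested for these branches, 1 was higher (8.33%) and 4 lower (33.3%) with imatinib, and 1 was higher and 5 lower (41.7%) with nilotinib. FNTA, the subunit shared by the farnesyl and geranylgeranyl transferases, went from 3963.7 to 2192.2 and 1984.8 (-0.85 and -1.0). ZMPSTE24, a protease that trims farnesylated prelamin A, went from 3319.8 to 1818.7 and 1479.7 (-0.86 and -1.16). Its difference between the drugs was -0.29 (adjusted p = 0.0146, limma). That call was lost without imatinib array 6 (0.0551), under cyclic loess and without the arrays of high actin ratio. PGGT1B, the partner of FNTA for geranylgeranyl transfer, read 198.9, 110.1 and 47.2, where the nilotinib mean lies under the filter, so no size of change is given. RABGGTA, a subunit of the enzyme that modifies RAB proteins, was higher at 198.2, 287.7 and 361.2 (0.51 and 0.78), and its imatinib call was lost without imatinib array 8 (adjusted p = 0.0565), DMSO array 9 (0.0591) or DMSO array 11 (0.0533) and under quantile normalization (0.34), cyclic loess (0.36) and median centring (0.28). The nilotinib call of RABGGTA was lost under median centring (0.26, adjusted p = 0.193).

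In the list for fatty acid activation, elongation and reducing power, 7 of 15 genes were lower (46.7%, beside 17.3% of all genes) and 1 higher with imatinib, and 9 were lower (60%, beside 23.5%) and 1 higher with nilotinib. IDH1, a cytosolic source of NADPH, fell from 2959.3 to 1211.4 with imatinib and 1145.9 with nilotinib (-1.28 and -1.36). ACSL4 and ACSL1, which activate fatty acids to acyl-CoA, fell from 340.4 to 109.4 and 105.5 and from 1832.1 to 875.8 and 869.4. HSD17B12, the ketoacyl reductase of chain elongation, fell from 2735.1 to 1683.8 and 1235.7 and was lower with nilotinib than with imatinib (-0.44, adjusted p = 0.00482, limma).

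Fatty acid oxidation had 8 of 20 genes higher (40%, beside 22.0% of all genes) and 4 lower (20%, beside 17.3%) with imatinib. With nilotinib 6 were higher (30.0%, beside 34.7%) and 5 lower (25.0%, beside 23.5%), shares near the background. CPT1A, which admits fatty acids to the mitochondrion, went from 389.9 to 767.9 and 830.4 (0.98 and 1.08), calls lost when all its probe sets were averaged (0.39 and 0.48). ACADVL, a dehydrogenase of very long chains, rose from 702.9 to 1270.1 and 1337.8, and the carrier gene SLC25A20 from 455.8 to 643.0 and 773.9, though under median centring its differences were 0.25 and 0.22 and not called. ACADS, which acts on short chains, went from 145.4 to 253.6 and 267.0 (0.80 and 0.93). The ACADS call with imatinib was lost without imatinib array 6 (adjusted p = 0.14), 7 (0.123) or 8 (0.0594) or DMSO array 10 (0.179) or 11 (0.0818), and the one with nilotinib without DMSO array 10 (0.0585). Both ACADS calls were also lost under quantile normalization (0.57 and 0.52), cyclic loess (0.61 and 0.53) and median centring (0.57 and 0.41). Outside the naming rule, and chosen after their values were seen, ECHS1, HADHB, DECR1 and ETFA, enzymes and electron carriers of the same process, were called lower with each drug.

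Among genes for glycerolipid and sphingolipid synthesis, 6 of 17 were higher (35.3%, beside 22.0% of all genes) and 4 lower (23.5%, beside 17.3%) with imatinib, and 7 were higher (41.2%, beside 34.7%) and 4 lower (23.5%, beside 23.5%) with nilotinib. UGCG, which makes glucosylceramide, rose from 384.3 to 798.4 and 830.7 (0.99 and 1.08). PCYT1A, of the phosphatidylcholine pathway, went from 92.7 to 149.8 and 199.6 (0.61 and 0.99), but its imatinib call was lost without imatinib array 6, 7 or 8 or DMSO array 9, 10 or 11 (adjusted p from 0.0559 to 0.102). The mean of its probe sets gave -0.077 with imatinib, not called (0.812). Both PCYT1A calls were lost under quantile normalization (0.35 and 0.46), cyclic loess (0.37 and 0.48) and median centring (0.39 and 0.46). CHKA, the choline kinase, read 256.3, 135.7 and 213.4, with a call for imatinib (-0.90) and none for nilotinib (-0.24). PEMT, which makes phosphatidylcholine by methylation, read 225.3, 183.8 and 118.5, called for nilotinib alone (-0.86, against -0.27). Setting aside the 4 high-ratio arrays ended the CHKA call (adjusted p = 0.0993) and the PEMT call (0.0858). Whether the effects of the drugs on CHKA and PEMT differ was tested directly and did not pass (adjusted p = 0.0701 and 0.112, limma).

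**Figure D4:**
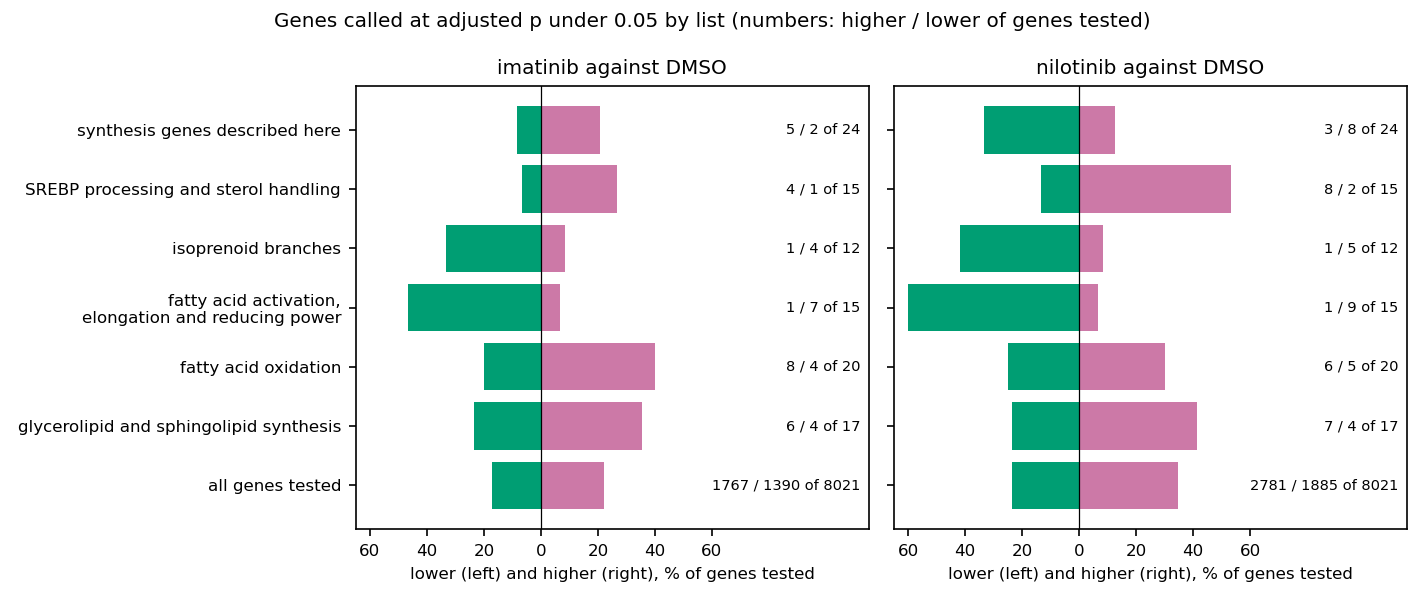
Percent of the genes tested in each list that were called lower (left, green) and higher (right, pink) against DMSO at an adjusted p under 0.05, with the counts at the right; the bottom bar is all 8021 genes tested. The list for fatty acid activation, elongation and reducing power has the longest bars to the left, at 7 and 9 of 15 genes, and the synthesis genes show 5 higher and 2 lower with imatinib and 3 higher and 8 lower with nilotinib.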

How the data were processed

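The deposited table holds 1 MAS5 signal per probe set and array, a linear intensity whose trimmed mean was nearly the same on every array. MAS5 is named in the submitters' processing notes. Which version was run and a scaling target are not given in the sources used here. Of 22277 probe sets, 62 controls were set aside, 19064 name 1 gene, 1043 several and 2108 none; 0 columns were left unmapped. Values were taken as log2(signal + 16). For each gene the probe set of highest mean was used, and those under the 40th percentile (signal 80.6) were dropped. limma 3.58.1 in R 4.3.3 fitted 1 mean per group over all 12 arrays (9 residual degrees of freedom) with an intensity trend, and p-values were adjusted by Benjamini-Hochberg over all 8021 genes, with calls at an adjusted p under 0.05. Fold changes are on the log2(signal + 16) scale, which understates the change of dim genes. Single array values were compared by exact permutation tests. Probe set values beside a gene come from a fit of all probe sets.

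The genes and lists were chosen with earlier results of these data known. All 28 genes are named, array values are given for called genes whose groups do not overlap, and up to 4 called genes of each other lipid list with the largest change are named. INSIG1 is shown by array in addition, chosen after its values were seen. Genes were named through the platform annotation, and promoters come from RefSeq, GRCh38.p14.

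On simulated data with 4 arrays per group, the test of imatinib against DMSO found 44.8% of changes of 0.5, 83.6% of 1 and 98.5% of 2 (log2). For nilotinib against DMSO it found 44.8%, 80.6% and 95.5%, and for nilotinib against imatinib 37.3%, 74.6% and 97.0%. In each simulation 67, 67 and 66 of 8021 genes were changed by 0.5, 1 and 2. That is a much smaller share than was called in the data, so these rates do not carry over to the real comparisons. Correlations between replicate arrays were 0.976 to 0.981 for DMSO, 0.968 to 0.972 for imatinib and 0.941 to 0.961 for nilotinib, and 0 pairs were identical. The alternatives were another pseudocount, filter, normalization, probe set rule or variance model, array weights, only the groups compared, and arrays left out. Adding probe sets that name several genes, and splitting arrays by actin ratio, were chosen after seeing the data. The number of arrays limits the precision. Figures were drawn with matplotlib 3.10.9.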

Additional observations from a re-analysis of the deposited data

Results flagged for a closer look

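In 3 of 81 groups of 4 arrays, 1 array stood apart from the other 3 of its group by a gap test, where chance gives about 1 in 20. PMVK read 529.6 on imatinib array 5, against 604.4 to 619.7 on the other imatinib arrays. FASN read 389.3 on the same array, against 511.5 to 513.8 on the others. SREBF2 read 145.5 on DMSO array 9, against 225.1 to 238.2 on the other DMSO arrays. None of these genes was called against DMSO with imatinib, and PMVK alone was called with nilotinib.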

How the results depend on the processing

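Under the alternatives run, and where a gene was still tested, the calls of SCD, ACLY, TM7SF2 and the shared FADS1 and CYP51A1 probe sets held against DMSO for each drug, as did those of SQLE and ELOVL6 with imatinib, ACAT2 and FDPS with nilotinib, and SCD and FDPS between the drugs. Of 9 calls with imatinib and 13 with nilotinib, shared probe sets included, 7 and 7 held throughout, and 2 of 3 between the drugs. Centring each array on its median moved the median of all genes from 0.09 to -0.14 for imatinib, from 0.15 to -0.37 for nilotinib and from 0.05 to -0.25 between the drugs, so that 11, 20 and 16 of the synthesis genes were called. Relative to that shift SCD and ACLY remained lower. Among all genes, median centring gave 820 higher and 2276 lower for imatinib, 831 and 3947 for nilotinib, and 76 and 2646 between the drugs. Between the drugs, 5 synthesis genes were called with the filter at the 60th percentile, 6 with quantile normalization and 5 with cyclic loess, against 3. Among all genes, quantile normalization gave 390 higher and 635 lower and cyclic loess 380 and 489, against 467 and 659. Leaving out 1 array at a time gave 5 to 8 calls of synthesis genes with imatinib, 8 to 12 with nilotinib and 3 to 4 between the drugs.

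Some differences changed sign, and apart from the shift given above the cause was not tested. With nilotinib, median centring gave -0.40 for HMGCS1 (adjusted p = 0.00678), -0.46 for LSS, -0.12 for INSIG1 and -0.34 for ELOVL6. It gave -0.29 for the FADS1 probe set between the drugs. Averaging probe sets gave 0.53 for FASN with nilotinib (adjusted p = 0.0252), where its dim second probe set enters, and -0.077 for PCYT1A with imatinib. Signals under about 80.6 limit what can be read for MVD and the dim probe sets. No paired analysis was possible because the replicate numbers run from 1 to 12 and no number is shared between groups.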
